A study of Mus musculus with 3 samples.

Results

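Messenger RNA is transcribed with its introns, which are spliced out mostly in the nucleus, so that reads from introns come largely from young or unfinished transcripts, while exonic reads come from nuclear and cytoplasmic RNA alike. The share of intronic molecules in a single-cell RNA library therefore varies with how much nuclear and how much cytoplasmic RNA of a cell was captured, and with how fast its genes are transcribed, spliced and degraded. Long-term haematopoietic stem cells (LT-HSCs), which sustain all blood lineages and are for the most part not dividing, carry little RNA per cell, and in this assay they are permeabilised with digitonin before the chromatin is cut.

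The cells described here were the ends of the distribution of that share. One pool of LT-HSCs came from bone marrow of 24-month-old female wild-type mice (enriched for c-Kit and, by the study's methods, gated as CD150+CD48-CD34- within the Lin-Sca-1+c-Kit+ fraction), with no treatment, and was profiled by DOGMA-seq. This assay reads open chromatin (ATAC), RNA and surface antibodies carrying DNA tags from the same droplet, so the 3 libraries share their cell barcodes. How many mice made up the pool is not stated in the labels. Of 4369 barcodes called as cells, 3724 had antibody counts and 3629 of these carried 10 or more tags over the 12 antibodies. Within these 3629 cells, the intronic unique molecular identifiers (UMIs, each standing for 1 captured RNA molecule) were divided by the sum of intronic and exonic UMIs. The 25% of cells with the highest share (908 cells, called intron-rich) were set against the 25% with the lowest share (908 cells, called intron-poor), and the other 1813 cells were the middle group.

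All cells came from 1 pool and 1 library of each kind, so there is no replicate for any comparison, cells are not replicates, and no test was made. The 95% intervals are exact and cover counting error only: variation between cells, between animals and between libraries is not in them. Tags or fragments of the same cell are counted as if independent, so the intervals can be too narrow. Because the groups were chosen by the intron share of the RNA library, every RNA value here describes the choice. Antibody tags and ATAC fragments were read from the other libraries of the same droplets. The choice did not use them beyond the minimum of 10 tags over the 12 antibodies.

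The intron share formed a single continuous distribution with no gap at either limit. It ran from 15.5% to 56.2% with a median of 36.6%, and its SD over cells was 5.30 percentage points, where counting the UMIs of each cell would alone give 1.10. The limits lay at 33.4% and 40.0%. The last cell inside the intron-poor group and the first one outside it both had 33.4%, the first intron-rich cell had 39.96% and the last below it 39.95%, and 892 cells (24.6%) lay within 1 percentage point of a limit, so the groups are ranges and not cell types. The 645 called cells without antibody counts had a median of 36.5%.

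**Figure D1:**
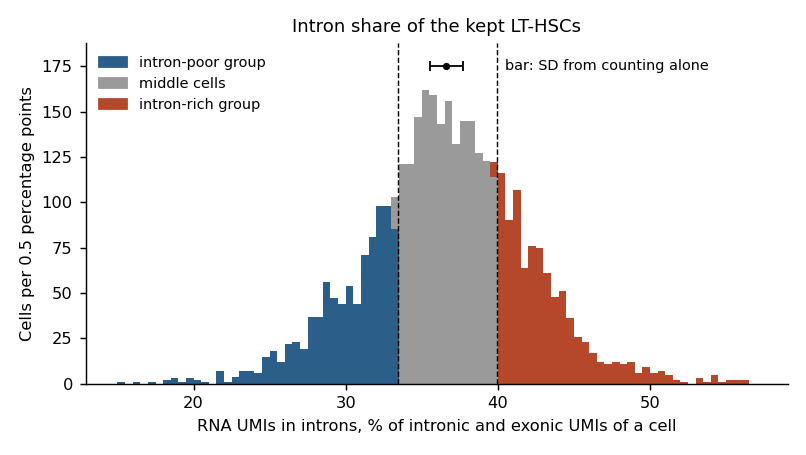
Number of cells (vertical axis) by intron share in percent (horizontal axis) for the 3629 cells, coloured by intron-poor group, middle cells and intron-rich group. The distribution has 1 peak and is cut at 33.4% and 40.0% with no gap at either limit.

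The label of the pool was checked against marker genes in the ATAC library. The mean promoter of the 25 genes of an HSC identity list, in windows of equal width, held 2.47 of every 100000 fragments in intron-rich and 2.30 in intron-poor cells. The mean promoter of B cell genes held 0.312 and 0.352, that of T cell genes 0.436 and 0.441, that of macrophage genes 0.502 and 0.509, and that of endothelial genes 0.814 and 0.792. That of erythroid genes held 0.756 and 0.794, and that of myeloid genes 0.820 and 0.818. Promoters of stem cell genes were thus the most open of the marker lists in both groups, with megakaryocyte genes next at 1.72 and 1.67, and no list of another cell type was high in 1 group alone.

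RNA depth was nearly equal in the groups, and ATAC depth was not. The median cell held 1973 RNA UMIs in the intron-rich, 1984 in the middle and 1960 in the intron-poor group. Its exonic UMIs numbered 1115, 1257 and 1353 in that order and its intronic UMIs 841, 726 and 596. Exonic and intronic UMIs are the counts that the choice divides, so at nearly equal totals these opposite differences are set by the choice. The median number of genes with a UMI was 1217 in intron-rich and 1182 in intron-poor cells.

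The ATAC library, which the choice did not use, was shallower in intron-rich cells. The median cell held 9211 nuclear fragments (quartiles 7708 and 10821) in the intron-rich, 10386 (8609 and 12070) in the middle and 11306 (9478 and 13276) in the intron-poor group, a ratio of 0.815 between the ends (log2 ratio -0.30). The distributions overlapped widely, from 3950 to 29102 fragments in intron-rich and from 4079 to 45069 in intron-poor cells. Over the 3629 cells, which share 1 pool and 1 library, the rank correlation of intron share with ATAC fragments was -0.27, with RNA UMIs 0.009 and with antibody tags -0.039. It was -0.29 with ATAC fragments when RNA UMIs were held fixed.

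RNA counts were also set against the ATAC depth of the same cell, as a description, since the choice separates exonic from intronic counts. Exonic UMIs per 1000 ATAC fragments had a median of 123 in intron-rich and 121 in intron-poor cells, whereas intronic UMIs per 1000 fragments had medians of 90.9 and 52.6. When the groups were taken within 10 bins of ATAC depth, so that both had a median of 10288 fragments, the intron-rich cells held more RNA, with medians of 2055 and 1848 UMIs. Depth of the ATAC library thus moved with the groups, and many of the chromatin and antibody results are given below also for these groups matched on ATAC fragments. The matched groups shared 754 intron-rich and 775 intron-poor cells with the groups of 908, so they are not independent of them. ATAC reads were duplicated to the same degree, with medians of 76.9% in both groups.

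Other reads of the RNA library differed in the same cells. Exonic reads on the antisense strand had a median share of 10.2% in intron-rich and 7.42% in intron-poor cells, reads between genes 10.6% and 9.31%, and intronic reads on the antisense strand 33.6% and 37.2%. Mitochondrial reads of the ATAC library made up 0.610% of the sum in intron-rich and 0.481% in intron-poor cells, yet the median cell had 0.216% and 0.230%, so the sums and the medians differed in opposite directions.

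In 10 equal groups of cells ordered by intron share, ATAC depth stepped down through almost the whole range. Its median went from 11687 fragments in the lowest group to 10571 in the fifth group and 8717 in the highest, with 1 small rise between the sixth and the seventh. The share of fragments in promoters went from 35.7% to 37.9%. Median RNA UMIs moved between 1854 and 2032 with no order. The gradient was thus not a property of the extreme cells alone.

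**Figure D2:**
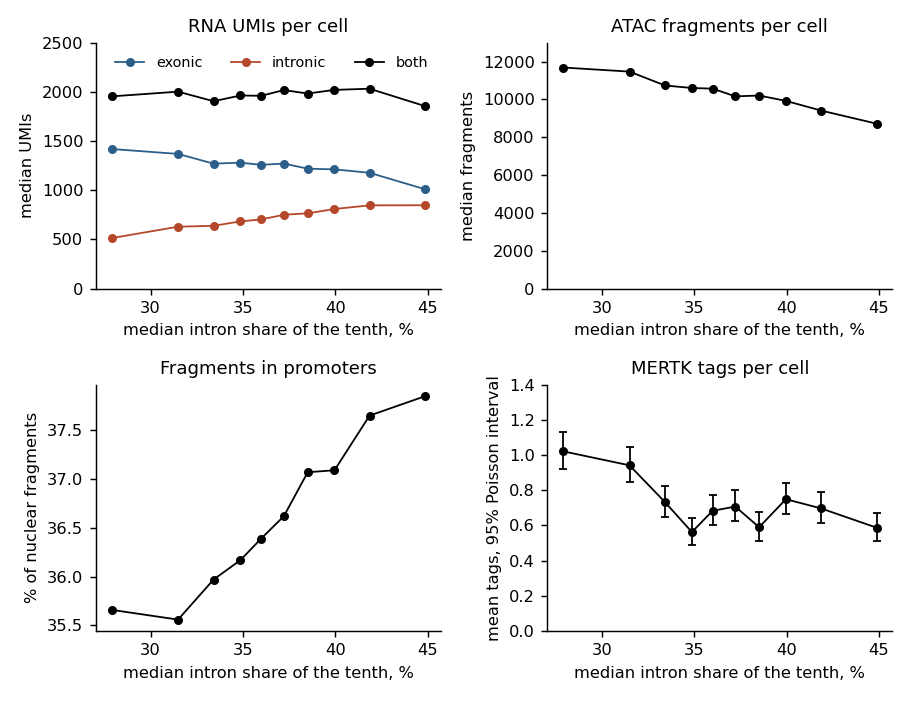
Medians or means in 10 equal groups of cells, plotted at the median intron share of each group in percent, with panels for median exonic, intronic and total RNA UMIs, median ATAC fragments, percent of fragments in promoters (axis not starting at 0) and mean MERTK tags with 95% Poisson intervals. Median ATAC fragments go from 11687 to 8717 and MERTK tags from 1.02 to 0.587 per cell as the share rises, while median RNA UMIs stay between 1854 and 2032.

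Of the 12 antibodies, the one whose interval lay furthest from 0 was against MERTK, a receptor tyrosine kinase through which phagocytes engulf apoptotic cells. Intron-rich cells held 0.628 MERTK tags per cell, middle cells 0.669 and intron-poor cells 0.943, a log2 ratio between the ends of -0.59 (-0.74 to -0.43). Cells with at least 1 tag made up 37.8% of the intron-rich (34.6 to 41.0) and 45.9% of the intron-poor group (42.7 to 49.2). The 10 groups ordered by intron share did not fall step by step, since the lowest 2 held 1.02 and 0.942 tags per cell and the other 8 between 0.562 and 0.749.

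The MERTK difference was smaller without a few strongly tagged cells. Cells with 5 or more MERTK tags numbered 8 among the intron-rich and 28 among the intron-poor, and the highest cell held 64. Without the 1% of cells with the most MERTK tags, the log2 ratio was -0.34 (-0.51 to -0.18). Relative to all matched tags it was -0.48, and in the groups matched on ATAC fragments -0.50 (-0.65 to -0.34). The Mertk gene (chr2:128698956-128802894, mm10) went the other way in the ATAC library, with 637 fragments in intron-rich and 701 in intron-poor cells and a depth-scaled log2 ratio of 0.16 (0.00 to 0.32), and its promoter held 188 and 243 fragments, with a ratio of -0.07 (-0.36 to 0.21). Among cells with at least 50 tags the ratio of the gene turned to -0.27.

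Lower counts in intron-rich cells were also measured for CD183, P2X7R, CD61, CD357 and CD274, but they were smaller or rested on few cells. CD183, the chemokine receptor CXCR3, was at 0.0650 and 0.113 tags per cell (log2 ratio -0.80, -1.29 to -0.33). It was the largest ratio of the 12, but on 59 and 103 tags: without the 1% of cells with the most CD183 tags it was -0.25, with an interval from -0.83 to 0.32, and as a difference of centred log ratios it was 0.02. P2X7R, an ATP-gated channel, was at 0.519 and 0.623 (-0.26, -0.44 to -0.09), and its interval held 0 both relative to all tags and in the groups matched on ATAC fragments (-0.15, -0.33 to 0.03).

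CD61, CD357 and CD274 had smaller ratios on more tags. CD61, integrin beta 3 of platelets and megakaryocytes, was at 3.599 and 3.958 tags per cell (-0.14, -0.21 to -0.07), CD357, the receptor GITR, at 3.10 and 3.39 (-0.13, -0.20 to -0.06) and CD274, the checkpoint ligand PD-L1, at 20.8 and 22.0 (-0.08, -0.11 to -0.05). All matched tags together had means of 30.5 and 32.9 per cell (-0.11, -0.13 to -0.09), so these 3 shifts were of the size of the shift in mean total tags. The median cell held 28 tags in the intron-rich and 29 in the intron-poor group, a log2 ratio of -0.05. CD274 alone gave 18858 of 27686 tags in intron-rich and 19949 of 29905 in intron-poor cells. The total is therefore mostly CD274, and setting CD274 against it compares CD274 largely with itself. Relative to all tags, CD61 and CD357 had intervals that held 0 and CD274 turned to 0.03 (0.00 to 0.06). For CD27, CD201, CD106, CD68, CD206 and CD163 the intervals held 0. CD163, a scavenger receptor of macrophages, had only 21 and 36 tags, and in the groups matched on ATAC fragments its ratio was -1.06 (-2.04 to -0.19).

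**Figure D3:**
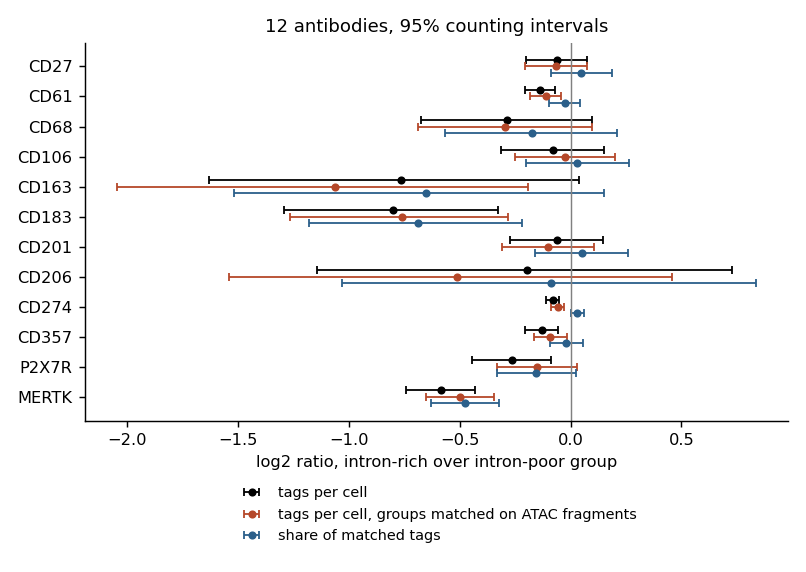
Log2 ratio of tags per cell, intron-rich over intron-poor, for each of the 12 antibodies (points, with 95% counting intervals as bars), as tags per cell, as tags per cell in groups matched on ATAC fragments and as share of all matched tags. MERTK lies at -0.59 (-0.74 to -0.43), CD183 at -0.80 with a wide interval, and CD274 at -0.08.

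Antibody gates for stem cell subtypes were cut at medians, so how many cells they hold depends on the cuts. Their sizes do not measure how common a subtype is in the pool, and only the groups are set side by side. The gate for platelet-biased cells (CD61 and CD274 high, CD357 and CD27 low, each at its median) held 8.04% of intron-rich (6.35 to 10.0) and 9.25% of intron-poor cells (7.45 to 11.3). The opposite gate, for multilineage cells, held 2.42% (1.53 to 3.65) and 1.54% (0.845 to 2.57). On centred log ratios the shares were 7.16% and 7.05% for the first gate and 7.27% and 6.61% for the second. The median intron share was 36.1% in the 342 cells of the first gate on tag counts, 38.7% in the 61 cells of the second and 36.6% in the 3226 cells of neither. All 4 pairs of intervals overlapped.

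Turning to where the chromatin was open, intron-rich cells had slightly more of their fragments at promoters. Within 1 kb on each side of gene starts lay 37.6% of 8625717 fragments in intron-rich, 36.5% in middle and 35.7% of 10596992 in intron-poor cells, a difference of 1.96 percentage points between the ends. Gene bodies outside promoters and exons held 32.8% and 34.0%, exons 6.395% and 6.459%, and the space between genes 23.1% and 23.8%. Fragments in called peaks made up 68.1% and 65.5%. In the groups matched on ATAC fragments the promoter difference was 0.643 percentage points, so the difference was smaller at matched depth.

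Fragments below the length of DNA on 1 nucleosome made up 33.2% in intron-rich and 32.3% in intron-poor cells, those of the next length class 32.2% and 32.9%, and longer ones 34.6% and 34.8%. Shares per chromosome differed by at most 0.098 percentage points, on chromosome 17. The chromatin libraries of the groups were thus close in composition, and the values for single genes are set against this small shift.

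Gene by gene, the groups hardly differed. Fragments over each gene and the 2 kb before it were summed per group and divided by all nuclear fragments of the group. Of 18039 genes with 200 or more fragments over both groups, 0 (0%) were more than 1.5 fold higher in intron-rich cells and 30 (0.166%) more than 1.5 fold lower, 24 of them protein coding. The SD of the log2 ratios over genes was 0.15, of which counting alone would give 0.12, their median was 0.01, and 53.9% lay above 0. In the groups matched on ATAC fragments 3 of these 30 genes were past 1.5 fold lower, and in groups taken within clusters of the ATAC library (described below) 5 were. Of 12480 promoters with as many fragments, 5 (0.0401%) were past 1.5 fold higher and 25 (0.200%) lower, with a median of 0.08 and 68.7% above 0. These counts changed with the settings. With 10% of the cells taken at each end, 28 promoters were higher and 3 lower. In narrow promoter windows 13 were higher and 4 lower. With cells thinned to 5000 fragments, 12 genes were higher and 9 lower. No gene was past 1.5 fold among those with 500 or more fragments. Such settings also change how many genes or promoters reach the minimum of fragments. Their counts are therefore not out of the 18039 genes or 12480 promoters above.

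The genes that led in intron-rich cells did so by less than 1.5 fold. Cd63, a tetraspanin of late endosomes (chr10:128900989-128912822), held 417 and 358 fragments, intron-rich first, and a log2 ratio of 0.52 (0.31 to 0.72). Txnip, which binds thioredoxin and restrains glucose uptake (chr3:96557957-96561883), held 538 and 492, with a ratio of 0.43 (0.25 to 0.61). Triap1, an inhibitor of apoptosis induced by p53 (chr5:115341225-115343569), held 247 and 210, with 0.53 (0.26 to 0.80). In raw fragments these genes were higher in intron-rich cells although that group had fewer fragments in all. Rpl37, of the large ribosomal subunit, followed at 0.40 (0.22 to 0.58) and Hinfp, a transcription factor for histone H4 genes, at 0.39 (0.22 to 0.57). The other 5 of the 10 with the highest lower bounds were Zbed5 (0.50), Iqcn (0.37) and the noncoding or unnamed genes Pard3bos1 (0.53), AC120159.1 (0.43) and K230015D01Rik (0.46).

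In the groups matched on ATAC fragments these 10 genes had ratios of 0.23 to 0.49, and within ATAC clusters 0.17 to 0.48. Txnip was among those that moved least, at 0.32 and 0.40. Cd63 was at 0.37 and 0.38.

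The 10 genes with the lowest upper bounds had log2 ratios of -0.85 to -0.53. Dusp14, a phosphatase of signalling proteins (chr11:84048041-84069261), held 92 fragments in intron-rich and 205 in intron-poor cells, a ratio of -0.85 (-1.23 to -0.50). Gsg1l, an auxiliary subunit of neuronal glutamate receptors, held 133 and 273 (-0.74, -1.05 to -0.44), and Gli3, a transcription factor of Hedgehog signalling, 280 and 496 (-0.53, -0.74 to -0.31). Nthl1, a DNA glycosylase of base excision repair, held 91 and 180 (-0.68, -1.07 to -0.32). The other 6 of the 10 with the lowest upper bounds were Agbl2 (-0.82), Gpr158 (-0.76), Gm9899 (-0.74), D130043K22Rik (-0.72), Kcnj12 (-0.66) and Gm12514 (-0.64). These 10 genes lay between -0.63 and -0.31 in the groups matched on ATAC fragments.

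**Figure D4:**
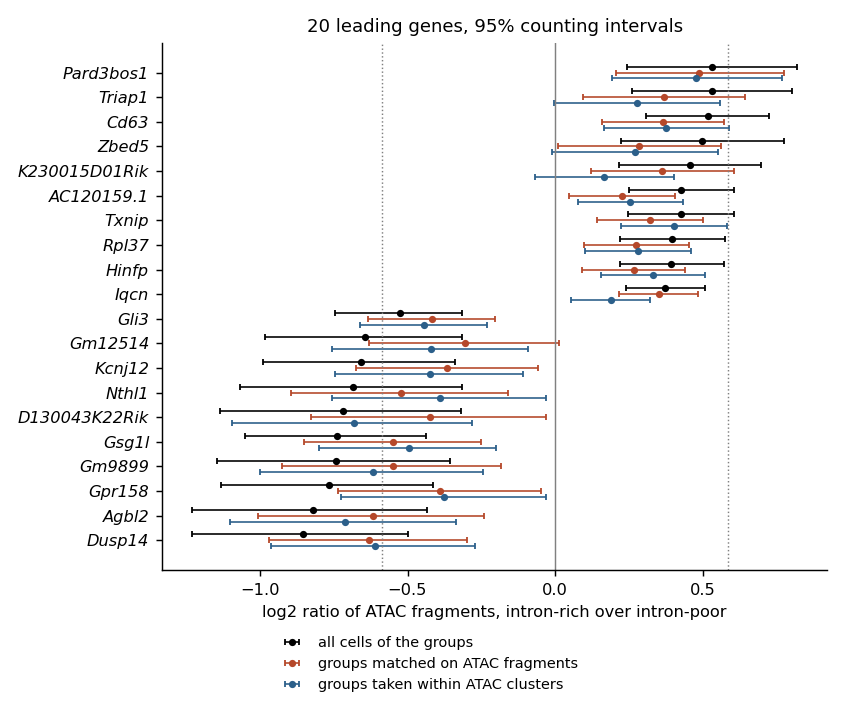
Log2 ratio of depth-scaled ATAC fragments, intron-rich over intron-poor, for the 10 genes with the highest lower bounds and the 10 with the lowest upper bounds (points, with 95% counting intervals), in all cells of the groups, in groups matched on ATAC fragments and in groups taken within ATAC clusters, with dotted lines at 1.5 fold. In the matched groups, which share most of their cells with these, most genes lie closer to 0.

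At promoters the highest lower bounds belonged to Sh3rf2 (131 and 100 fragments, 0.68), Tspan2os (0.60), Dnmbp, a guanine nucleotide exchange factor for Cdc42 (249 and 206, 0.57), Gpsm1, a regulator of G protein signalling (218 and 182, 0.56), and Gatc, a subunit of a mitochondrial amidotransferase (238 and 202, 0.53). Gatc and Triap1 are transcribed in opposite directions from starts 70 bases apart and their promoter windows held the same 238 and 202 fragments, so they are 1 observation. The lowest upper bounds belonged to Hist1h3g, a histone H3 gene (82 and 178, -0.82), Thbd, the thrombin receptor thrombomodulin (108 and 223, -0.75), Gm26863 (-0.73), Onecut3 (-0.73) and Mmp23 (-0.72). Thbd was at -0.40 in the groups matched on ATAC fragments and at -0.26 (-0.58 to 0.05) within ATAC clusters, and Hist1h3g at -0.69 and -0.48.

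Promoter sequences were taken from RefSeq (GRCm38.p6, 250 bases before to 50 after the start, 5′ to 3′ on the gene's strand) to show the letters behind genes at either end. Of 12480 promoters compared, 8363 had a sequence in that table. The first 4 come from genes that led in intron-rich cells (Txnip at chr3:96557707-96558006, plus strand, Rpl37 at chr15:5116363-5116662, plus, Triap1 at chr5:115340981-115341280, plus, and Dnmbp at chr19:43940149-43940448, minus) and the last 2 from genes that were lower there (Nthl1 at chr17:24632432-24632731, plus, and Epor at chr9:21963527-21963826, minus). Capitals mark matches on either strand to the letters searched.
Txnip: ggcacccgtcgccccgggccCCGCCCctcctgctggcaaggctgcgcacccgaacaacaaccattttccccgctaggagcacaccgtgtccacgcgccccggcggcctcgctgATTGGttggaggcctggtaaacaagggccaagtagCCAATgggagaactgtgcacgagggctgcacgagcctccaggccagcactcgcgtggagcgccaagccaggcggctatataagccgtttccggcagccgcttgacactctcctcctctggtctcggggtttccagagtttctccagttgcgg
Rpl37: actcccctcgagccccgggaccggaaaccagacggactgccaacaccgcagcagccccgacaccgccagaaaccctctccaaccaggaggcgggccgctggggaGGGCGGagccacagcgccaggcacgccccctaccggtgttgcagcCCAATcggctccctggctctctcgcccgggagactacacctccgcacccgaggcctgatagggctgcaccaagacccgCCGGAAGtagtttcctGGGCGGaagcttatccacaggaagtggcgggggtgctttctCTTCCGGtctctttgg
Triap1: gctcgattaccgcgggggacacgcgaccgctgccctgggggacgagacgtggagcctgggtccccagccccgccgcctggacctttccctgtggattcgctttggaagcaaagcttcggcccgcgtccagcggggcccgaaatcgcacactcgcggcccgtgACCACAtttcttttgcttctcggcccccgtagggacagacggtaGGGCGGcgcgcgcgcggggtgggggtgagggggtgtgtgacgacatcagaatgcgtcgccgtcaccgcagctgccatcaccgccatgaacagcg
Dnmbp: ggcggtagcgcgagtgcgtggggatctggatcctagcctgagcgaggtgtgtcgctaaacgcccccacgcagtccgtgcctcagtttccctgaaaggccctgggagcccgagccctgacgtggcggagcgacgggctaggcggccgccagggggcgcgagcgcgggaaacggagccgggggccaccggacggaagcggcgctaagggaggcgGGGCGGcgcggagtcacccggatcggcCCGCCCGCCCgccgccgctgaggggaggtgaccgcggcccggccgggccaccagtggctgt
Nthl1: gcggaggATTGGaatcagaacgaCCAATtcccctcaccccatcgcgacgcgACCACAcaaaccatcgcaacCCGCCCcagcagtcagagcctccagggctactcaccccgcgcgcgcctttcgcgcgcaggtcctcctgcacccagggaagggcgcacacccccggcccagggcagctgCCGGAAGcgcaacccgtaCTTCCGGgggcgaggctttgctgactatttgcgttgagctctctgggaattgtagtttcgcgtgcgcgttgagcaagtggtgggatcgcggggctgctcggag
Epor: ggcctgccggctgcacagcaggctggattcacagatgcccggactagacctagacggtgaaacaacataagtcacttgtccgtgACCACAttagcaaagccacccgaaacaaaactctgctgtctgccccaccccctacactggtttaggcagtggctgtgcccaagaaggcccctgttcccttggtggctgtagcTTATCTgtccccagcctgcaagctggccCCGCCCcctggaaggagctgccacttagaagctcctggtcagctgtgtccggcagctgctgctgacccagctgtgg

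The motifs searched on both strands were TATAAA for the TATA box, CCAAT for the box of that name, GGGCGG for the GC box, TGANTCA for AP-1, TGACGTCA for the CRE, CACGTG for the E-box, AGATAA for GATA factors, TGTGGT for RUNX, CCGGAAG for ETS, GCGCATGC for the core of the NRF1 site and AAGATGG for YY1, and no motif's letters lie within those of another. Txnip held 2 CCAAT boxes and 1 GC box, and Rpl37 held 1 CCAAT box, 2 ETS and 2 GC box matches. Of the 16496 promoters with a sequence, 47.2% held a GC box, 38.7% a CCAAT box, 12.3% the ETS and 15.2% the RUNX letters. Of the 8363 that were also compared, the shares were 70.7%, 39.5%, 20.1% and 11.2%. Epor held 1 GATA match, as 9.15% of all and 4.77% of the compared promoters do, beside 1 RUNX and 1 GC box match. Matches are letters only and say nothing of binding.

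Over the 8363 compared promoters with a sequence, these letters separated the log2 ratios by very little. Promoters with a CRE had a median ratio of 0.11 and those without 0.07, a difference of 0.03 that was also 0.03 in the groups matched on ATAC fragments. CRE letters occurred in 3.90% of them and in 2.50% of all promoters with a sequence. For each of the other 10 motifs the medians with and without it differed by at most 0.02.

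Promoters with more fragments had higher ratios. Of 5 equal bins of promoters, the one with the fewest fragments had a median log2 ratio of 0.00 and the one with the most 0.14, against -0.01 and 0.06 in the groups matched on ATAC fragments. By CpG count in the sequence the medians went from 0.05 in the poorest to 0.09 in the richest of 5 bins. By gene length the medians over genes went from 0.04 for the shortest to -0.02 for the longest of 5 bins, a difference of 0.07 that was 0.02 in the matched groups. Values are across genes, which are not independent replicates.

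Against this background, most gene lists sat close to the median of all genes. A list is described by the log2 ratio of its summed fragments, by how many of its genes with 200 or more fragments lay above 0 (53.9% of all genes did) and by how many lay above the median of all genes, a count that no scaling of the groups can change. Lists were not tested, and their shifts are of the order of the promoter shift above. The fragments of a gene include those near its start, and the median over all promoters was itself at 0.08.

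Immediate early genes, which respond to signals and to handling without new protein synthesis, had the highest sum over genes. Their 30 genes held 0.13 (0.11 to 0.16), 27 of them lay above 0 and 26 above the median of all genes, with a list median of 0.14. Klf2, a transcription factor of quiescent cells, led with 768 fragments in each group and a ratio of 0.30 (0.15 to 0.44). Egr1 was at 0.22 (0.12 to 0.32) and Dusp1, a phosphatase of MAP kinases, at 0.14 (0.04 to 0.24), while Egr3 was lowest at -0.16 (-0.39 to 0.06). The list's fragments per 100000 went from 263 in the lowest to 292 in the highest of the 10 groups ordered by intron share. Depth moved with this result: the sum was 0.06 (0.04 to 0.09) in the groups matched on ATAC fragments and 0.06 within ATAC clusters, and Klf2 was at 0.07 in both. Among cells with at least 50 tags, 91 in each group, the sum turned to -0.0142. Over promoters alone the sum was 0.15, and 23 of 29 lay above the median of all promoters. In the groups matched on ATAC fragments 18 of 29 promoters did.

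Genes of quiescence and cell cycle entry came next, at 0.10 (0.07 to 0.13), with 22 of 25 above 0 and 21 above the median of all genes. Txnip was their highest at 0.43 and Foxo3, a transcription factor that maintains HSCs, was at 0.16 (0.07 to 0.26). Ccnd3, a D-type cyclin and the list's gene with the most fragments, was at 0.05 (-0.03 to 0.14), and Cdkn1b, the cell cycle inhibitor p27, was lowest at -0.15 (-0.35 to 0.05). Only 3 genes of the list lay below 0. The sum was 0.06 (0.03 to 0.09) in the groups matched on ATAC fragments and 0.07 within ATAC clusters. Over promoters alone this list had the highest sum, 0.16 (0.12 to 0.20). Of its promoters, 17 of 22 lay above the median of all promoters, and 15 of 22 in the matched groups.

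Genes of RNA synthesis and processing, the pathways that make and remove introns, differed from all genes by small amounts. Splicing genes held 0.09 (0.07 to 0.11), with 51 of 74 above 0 and 50 above the median of all genes. Srsf3, a splicing regulator of the SR family, was highest at 0.27 (0.13 to 0.41), Sf1, which binds the branch point, was at 0.24 (0.13 to 0.35) and Aqr, a helicase of the spliceosome, was lowest at -0.31 (-0.61 to -0.02). Among cells with at least 50 tags Srsf3 turned to -0.15 and Aqr to 0.42. Of the splicing promoters, 41 of 68 lay above the median of all promoters, and 36 of 68 in the groups matched on ATAC fragments. RNA polymerase II transcription genes held 0.07 (0.05 to 0.09), with 39 of 57 above the median of all genes, from Polr2k, a subunit shared by the RNA polymerases, at 0.51 (0.20 to 0.82), to Med17, of the Mediator complex, at -0.21 (-0.49 to 0.07). Genes of mRNA decay held 0.06, with 25 of 43 above the median of all genes and Exosc2, of the RNA exosome, lowest at -0.42 (-0.70 to -0.15). Genes of mRNA export and the exon junction held 0.02 (-0.01 to 0.06), with 17 of 32. In the groups matched on ATAC fragments splicing was at 0.04 (0.02 to 0.06), transcription at 0.03 (0.01 to 0.05), mRNA decay at 0.02 (-0.01 to 0.04) and export at -0.02 (-0.06 to 0.01), with 13 of 32 export genes above the median of all genes. Scaling by promoter fragments in place of all fragments lowers every gene and list by the same 0.0773 on the log2 scale, so that any sum between 0 and that value turns sign, and transcription was then at -0.00355 and mRNA decay at -0.0157.

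Ribosomal protein genes, the most abundant messages of most cells, held 0.10 (0.08 to 0.12), with 63 of 81 above 0 and 60 above the median of all genes, from Rpl37 at 0.40 to Rpl35 at -0.28 (-0.52 to -0.04). In the groups matched on ATAC fragments the sum was 0.04 (0.02 to 0.06). Respiratory chain genes held 0.06, with 53 of 86 above the median of all genes, but in the matched groups 38 of 87 lay above it and the sum was 0.01 (-0.01 to 0.04), and with the uniform shift of scaling by promoter fragments it was -0.0144. Of the 67 replication-dependent histone genes, 52 had 200 or more fragments, 19 of these lay above the median of all genes, and the sum was -0.02 (-0.05 to 0.02). Within ATAC clusters 28 of 51 lay above the median and the sum was 0.03 (0.00 to 0.06). Of the histone promoters, 14 of 48 lay above the median of all promoters, and still 16 of 48 within ATAC clusters. S phase genes held 0.00 (-0.02 to 0.03), with 25 of 61 above the median of all genes and Dscc1, of the sister chromatid cohesion clamp loader, lowest at -0.65 (-1.02 to -0.29), or -0.34 (-0.67 to -0.00451) in the matched groups.

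**Figure D5:**
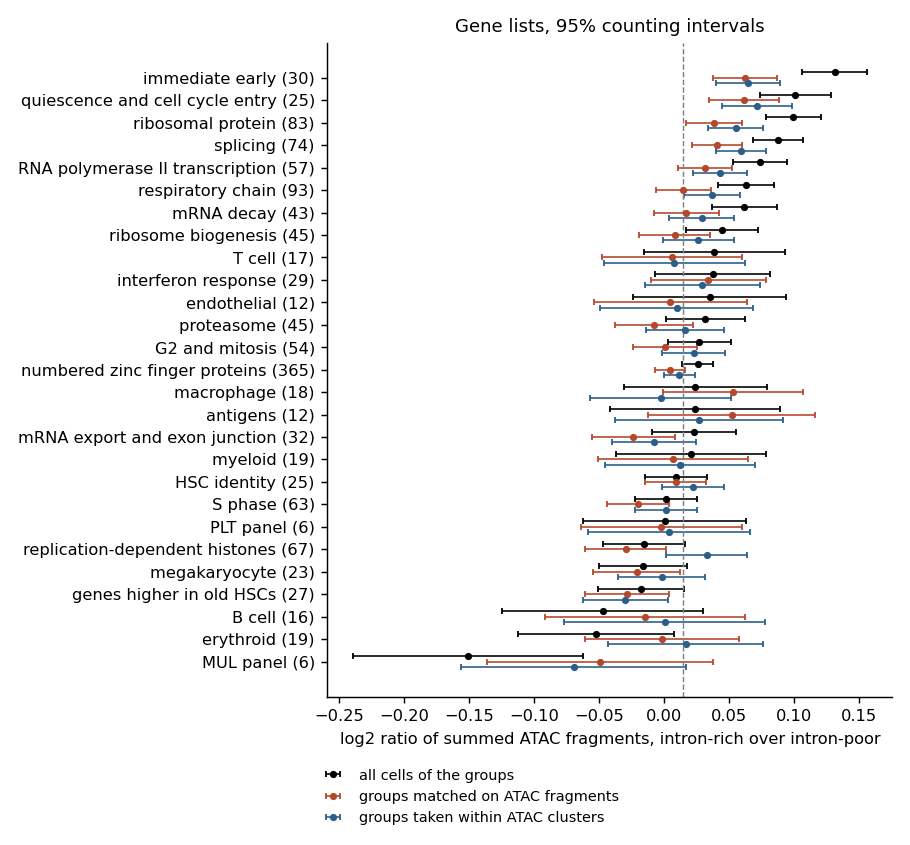
Log2 ratio of summed ATAC fragments, intron-rich over intron-poor, for each list with 5 or more genes of 200 or more fragments (number of annotated genes in parentheses), with 95% counting intervals, in all cells, in groups matched on ATAC fragments and in groups taken within ATAC clusters. The dashed line is the median of all genes, 0.01. Immediate early genes are highest at 0.13 and move to 0.06 in the matched groups, and the MUL panel is lowest at -0.15.

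Among stem cell and lineage genes, the sums of most lists lay near 0, while the MUL panel described below and single receptor genes lay lower. HSC identity genes held 0.01 (-0.01 to 0.03), with 12 of 24 above the median of all genes. Hlf, a transcription factor of HSCs, was highest at 0.16 (0.05 to 0.27), Mecom, another, was at 0.06 (0.00 to 0.12) and Runx1 at -0.15 (-0.22 to -0.08). Slamf1, which encodes the sorting antigen CD150, was lowest of the list, with 224 fragments in intron-rich and 397 in intron-poor cells (-0.53, -0.77 to -0.29), and was at -0.47 in the groups matched on ATAC fragments and -0.36 within ATAC clusters.

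Megakaryocyte genes held -0.02 (-0.05 to 0.02), with 7 of 19 above the median of all genes and a list median of -0.09. Relative to all genes the list median turned to 0.0362 with 10% of the cells at each end and to 0.0505 with at least 50 tags. Their highest gene was Nfe2, a transcription factor of platelet formation, at 0.23 (0.09 to 0.37). Vwf, the platelet adhesion factor, was at -0.06 (-0.15 to 0.03). Erythroid genes held -0.05 (-0.11 to 0.01), with 4 of 11 above the median of all genes. Their sum was -0.00172 (-0.06 to 0.06) in the matched groups and 0.02 (-0.04 to 0.08) within ATAC clusters, where 6 of 10 lay above the median. Klf1 was their highest at 0.19 (-0.01 to 0.39), and was at 0.22 in the matched groups and 0.29 within ATAC clusters. Epor, the erythropoietin receptor, was their lowest with 143 and 266 fragments (-0.60, -0.90 to -0.30), at -0.41 in the matched groups and -0.34 within ATAC clusters.

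The panel of genes for multilineage stem cells (MUL panel) held -0.15 (-0.24 to -0.06), with 1 of 5 above the median of all genes. Crip2, a LIM domain protein, was lowest at -0.31 (-0.53 to -0.09), Flt3, a receptor of lymphoid priming, was at -0.12 (-0.28 to 0.04) and Sox4 at -0.11 (-0.31 to 0.08). The panel for platelet-biased stem cells held 0.00 (-0.06 to 0.06). In the groups matched on ATAC fragments both panels had intervals that held 0, at -0.05 and 0.00. Within ATAC clusters the MUL panel was at -0.07 (-0.16 to 0.02). Macrophage genes, whose antibodies include MERTK, held 0.02 (-0.03 to 0.08), with 7 of 10 above the median of all genes. In the matched groups 8 of 10 lay above it, and within ATAC clusters 4 of 10 did, with a sum of -0.00262 (-0.06 to 0.05).

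The groups also fell unevenly over clusters of cells built from the ATAC library alone, which are called by number. Cluster 1 (1920 cells, median 8816 fragments) held 34.0% intron-rich and 16.8% intron-poor cells, cluster 2 (1410 cells, 12244 fragments) 16.1% and 30.9%. Cluster 3 (299 cells, 12159 fragments) held 9.37% intron-rich (6.31 to 13.3) and 50.2% intron-poor cells (44.4 to 56.0). The clusters thus differed in depth as well as in intron share. Cluster 3 had the highest RNA depth, with a median of 2691 UMIs against 1788 and 2134, the lowest CD274, at 11.8 tags per cell against 21.5 and 23.0, and a median of 19 tags in all. The genes most open in it against other cells were Gata1, Gm45353, Hist1h3b, Wnt2 and Tacr1, and Hist1h3g was the sixth.

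Within each cluster intron-rich cells had fewer ATAC fragments and fewer MERTK tags. The median ATAC depth of intron-rich cells was 0.955 of that of intron-poor cells in cluster 1, 0.935 in cluster 2 and 0.874 in cluster 3. The MERTK log2 ratio was -0.40 (-0.63 to -0.18), -0.60 (-0.89 to -0.32) and -1.06 (-1.98 to -0.34), on 28 intron-rich and 150 intron-poor cells in cluster 3. Immediate early genes were at 0.07, 0.04 and 0.11 in the 3 clusters. The part of the clusters in the results over all cells was not tested.

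Droplets with 2 cells were looked for from sites covered by 3 or more fragments, since a diploid cell gives at most 2 per site until it has replicated its DNA. Such an excess was seen in 4.41% of intron-rich (3.17 to 5.95), 6.34% of middle and 109 of 908 intron-poor cells (9.96% to 14.3%). Relative to cells of the same ATAC depth it was seen in 1.87%, 2.87% and 4.52%. By ATAC cluster it was seen in 0.365% of cells of cluster 1, 13.9% of cluster 2 and 20.4% of cluster 3, in the order of their intron-poor shares. These cells were kept. Leaving all 264 out gave medians of 9076 and 10823 ATAC fragments, so the depth difference was then smaller but in the same direction.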

How the data were processed

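ATAC, RNA and antibody libraries of 1 pool of LT-HSCs were used, 3 samples in GEO's terms. Per the labels and the study's methods, the authors ran Cell Ranger ARC 2.0.2 on the mm10 reference and CITE-seq-Count for tags (version not stated). The deposited values are counts: reads, UMIs and ATAC fragments per barcode, positions of single fragments, and tag UMI counts per antibody. The RNA gene matrix is not analysed here, so no expression of single genes is given.

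The cells, gene lists and comparisons were chosen with earlier results of these data known. Fragments were counted once per gene (body and 2 kb upstream) and per promoter (1 kb on each side of the start) of GENCODE M21, summed per group, scaled by all nuclear fragments of the group, and 0.5 was added. Ratios have exact conditional binomial intervals, counts per cell exact Poisson and shares exact binomial (Clopper-Pearson) intervals, all for counting error only, at 95%. Genes with 200 or more fragments over both groups were compared. A fold of 1.5 took the place of a test. Candidates for naming were the 10 with the highest lower and the 10 with the lowest upper bounds, 5 and 5 promoters likewise, the antigens and panels, and for each list the 2 genes with the most fragments, the highest and the lowest. They number 92, of which the text prints a part, picked with their values known, and 1 gene is not reported here. A gene whose fragments overlap those of a neighbour shares its counts with it.

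ATAC clusters came from windows of 5 kb that at least 1% of the cells had open, latent semantic indexing with 30 components and Leiden clustering at resolution 0.5 (leidenalg 0.10.2, scikit-learn 1.9.0). No doublet caller was run and no cell was removed as a doublet. Cells with an excess of sites covered by 3 or more fragments were left out in an alternative. The kept cells held a median of 10287 ATAC fragments, 1978 RNA UMIs and 29 tags. The ratio, its interval and the 1.5 fold rule were first tried on simulated sums, in which some genes were changed by more than 1.5 fold. Calculations used Python 3.11.15, numpy 2.4.6, scipy 1.17.1 and pandas 2.3.3.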

Additional observations from a re-analysis of the deposited data

Results flagged for a closer look

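Signals outside the comparisons were seen in 3 places. Antibody tags that matched none of the 12 antibodies numbered 15768 in the kept cells, at 4.29 per intron-rich and 4.43 per intron-poor cell. The pool was labelled female, and 7607 ATAC fragments lay on chromosome Y, at 19.5 and 20.2 per 100000 fragments. A further 55771 fragments lay on sequences not placed on a chromosome, at 148.2 (145.7 to 150.8) and 142.5 (140.3 to 144.8) per 100000. These last 2 intervals did not overlap.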

How the results depend on the processing

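No paired analysis was possible because 1 pool was measured and no group has replicates. Of 1656 values of named genes under alternatives, 1559 stayed within the counting interval of the value reported and 11 turned sign. For 12 antibodies, 145 of 180 stayed and 5 turned, for summed lists 379 of 507 stayed and 12 turned, 7 of these under the uniform shift of scaling by promoter fragments, and for list medians 488 of 507 stayed and 4 turned. The sums counted as turned all had reported intervals that excluded 0. Sums whose reported interval held 0 were not counted, though some of them changed sign. The cause of each move was not tested. Counts past 1.5 fold are out of the genes or promoters that reached the minimum of fragments under that alternative. That number can differ between alternatives and is not given, so the counts are not shares of 1 fixed number. Depth limits single genes, since counting gave most of the spread of their ratios.

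Here and below, ATAC fragments and RNA UMIs are given as log2 ratios of medians, and tags as log2 ratios of means per cell. The values reported were -0.30 for ATAC fragments, 0.01 for RNA UMIs and -0.11 for tags, whose ratio of medians was -0.05. The promoter difference was 1.96 percentage points. Past 1.5 fold, 0 genes were higher and 30 lower, and 5 promoters were higher and 25 lower. With 10% of the cells in place of 25% at each end, ATAC fragments were at -0.42, RNA UMIs at -0.0758, 20 genes and 28 promoters were higher and 3 promoters lower, and the megakaryocyte list median was 0.0362 above that of all genes. With groups split at the median, ATAC fragments were at -0.18, tags at -0.0782, the promoter difference was 1.299 points, 5 genes were higher and 12 lower, and 1 promoter was higher and 5 lower. With the intron share taken from reads, RNA UMIs were at -0.10, tags at -0.0768, 2 genes were higher and 15 promoters lower.

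Within bins of RNA UMIs, 2 genes and 3 promoters were higher and 15 promoters lower. Within bins of ATAC fragments, ATAC was at 0, RNA UMIs at 0.15, tags at -0.0848, the promoter difference was 0.643 points, 2 genes were higher and 15 lower, and 2 promoters were higher and 14 lower. Of the gene sums whose reported interval excluded 0, that of proteasome genes turned there, to -0.00776. Sums whose reported interval held 0 also changed sign, such as those of mRNA export (-0.0239) and S phase genes (-0.0204). Within bins of both, ATAC was at -0.0128, tags at -0.0863, the promoter difference was 0.803 points, 2 genes were higher and 18 lower, 11 promoters were lower, and Mcm5 turned to -0.00484 and summed proteasome genes to -0.00514.

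With at least 50 tags, which left 91 cells a group, the promoter difference was 1.36 points, 1 gene was higher and 6 lower, and 0 promoters were past 1.5 fold in either direction. There CD274 turned to 0.00904 and CD357 to 0.21. The genes Pard3bos1 (-0.0296), Gsg1l (0.36), Kcnj12 (0.36), D130043K22Rik (0.83), Mertk (-0.27), Mcm5 (-0.18), Dscc1 (0.14), Dusp1 (-0.0485), Srsf3 (-0.15) and Aqr (0.42) and the promoter of Onecut3 (0.46) also turned. Lists that turned there were immediate early genes (summed -0.0142, median -0.00423 relative to all genes, promoters summed -0.00923), zinc finger genes (summed -0.000676), the megakaryocyte median (0.0505) and the histone promoter median (0.0147). With no minimum of tags, 3 genes were higher. Without cells with an excess of overlapping fragments, tags were at -0.0693 and 1 gene was higher. Without the deepest 5% of cells, 2 genes and 8 promoters were higher.

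Relative to all tags CD274 turned to 0.0301, and as centred log ratios CD274 turned to 0.0204 and CD183 to 0.0170. Scaling by promoter fragments, which lowers every gene and list by the same 0.0773, gave 74 genes lower, 1 promoter higher and 53 lower. Of the gene sums whose reported interval excluded 0, it turned those of the G2 and mitosis (-0.0503), mRNA decay (-0.0157), RNA polymerase II (-0.00355), ribosome biogenesis (-0.0330), respiratory chain (-0.0144), proteasome (-0.0458) and zinc finger (-0.0517) lists. The other gene sums between 0 and 0.0773 also changed sign. Over gene bodies alone, 4 genes were higher. With 500 or more fragments, 0 genes were lower and 0 promoters past 1.5 fold in either direction. With 1 or more, 1764 genes were higher and 2997 lower. With cells thinned to 5000 fragments, 12 genes were higher and 9 lower. With narrow promoters, 13 were higher and 4 lower. The intron-rich share ranged over 24.7 percentage points between clusters at the main and 32.9 at the finer resolution.

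Alternatives chosen after seeing the data were these. Without cells with 5 or more macrophage antibody tags, tags were at -0.0641 and 2 genes and 9 promoters were higher. Without cluster 3, RNA UMIs were at 0.0718, tags at -0.18, 2 genes and 3 promoters were higher and 15 promoters lower. In groups taken within clusters, ATAC was at -0.10, RNA UMIs at 0.17, tags at -0.16, the promoter difference was 0.949 points, 4 genes were higher and 8 lower, and 3 promoters were higher and 3 lower.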
